A study of Mus musculus with 2 samples.

Results

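The Notch pathway of the mouse otocyst was read in cells sorted by a fluorescent transgene. The otocyst is the epithelial vesicle that forms the inner ear. The gene set holds 39 genes for Notch receptors, ligands, the enzymes that modify and cut them, the nuclear complex, targets and inhibitors, out of 18194 genes named on the array. Members were chosen by name, and a row was read where its probe set named 1 gene only. Of the 39 members, 38 had such a probe set and 1, Maml3, did not. The 38 genes were covered by 71 probe sets, a probe set being the group of short probes that measures 1 transcript region.

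Cells came from embryos at E10.5 (embryonic day) that were heterozygous for Tg(ETAR-EGFP)14Imeg, a transgene expressing enhanced green fluorescent protein. Both groups carry the transgene, and no embryos without it are compared here. Per the labels, EGFP lies mainly in the ventral and dorsomedial otocyst and is lacking in its dorsolateral part. Markers of other cell types were also measured, most of them higher in EGFP-negative cells, so the comparison is not one of these territories alone. EGFP-positive and EGFP-negative cells were each measured on 1 Affymetrix array, and how many embryos were pooled is not stated in the labels. With 1 array per group no difference can be set against a spread between replicates, no test was possible, and every statement describes these 2 libraries.

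Notch signalling passes between touching cells. A ligand of the Delta or Jagged family on one cell binds a Notch receptor on its neighbour, the receptor is cut by gamma-secretase, and its freed intracellular domain joins the DNA-binding protein Rbpj and a Mastermind coactivator to switch on targets such as the Hes and Hey repressors. In the early ear the pathway is known for setting aside neuroblasts by lateral inhibition, through Delta ligands, and for promoting the sensory patches, through Jag1.

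Values are MAS5 signals, intensities on a linear scale. A signal at or below the 40th percentile of its array, 10.4 for EGFP-positive cells and 12.4 for EGFP-negative cells, was treated as lying at a floor. The ratio of a gene divides its EGFP-positive signal by its EGFP-negative signal, on the log2 scale and from its brightest probe set, and 2-fold is a log2 difference of 1. Because probe sets differ in how strongly they bind, signals are compared between libraries and not between genes. Median signals over all probe sets were 17.6 (EGFP-positive) and 20.6 (EGFP-negative).

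Of 15 measured markers of otic epithelium, all lay above the floor in both libraries, and 11 passed 2-fold towards EGFP-positive cells, with a median log2 ratio of 1.30. Most markers of other cell types lay in the opposite direction, although the labels call both groups epithelial. Their summed signals, EGFP-positive library first, were 596.9 and 7344.4 for 20 mesenchyme genes, 163.9 and 1171.3 for 16 endothelial genes, 101.4 and 3075.5 for 16 hindbrain genes, 3054.5 and 21644.9 for 11 erythroid genes and 167.9 and 1831.9 for 14 leukocyte genes. Those of 11 neural crest and glial genes were 2606.3 and 2615.2, with 7 past 2-fold towards EGFP-negative cells and 2 towards EGFP-positive cells. The 2 were Sox10, also on the otic epithelium list, with 889.3 and 403.7, and Erbb3, with 1405.0 and 511.1. They hold most of the EGFP-positive sum, so the near-equal sums do not describe the other genes of this list. No marker had a signal of 0. In such sorted pools, fewer cells of a type and less RNA per cell cannot be told apart.

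On the scale as deposited, most Notch genes were close between the libraries. On that scale, the ligand Jag1 and the receptor modifier Lfng were higher in EGFP-positive cells. The ligands Dll3 and Dner and the target Hes5 were higher in EGFP-negative cells. Above the floor on 1 or both arrays lay 34 members, of which 2 passed 2-fold towards EGFP-positive cells, 5.88% of members against a background of 2.90% of all 13363 genes above the floor. Another 3 members passed 2-fold towards EGFP-negative cells, 8.82% against a background of 7.63%. These shares rest on a few genes and lie near the background in the second case. The other 29 differed by less than 2-fold, and 24 differed by less than 1.5-fold, 70.6% of members against 77.7% of all genes. The median log2 ratio was -0.13 for members and 0.00317 for all genes, and the median size of the ratio without its sign was 0.34 and 0.25.

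**Figure D1:**
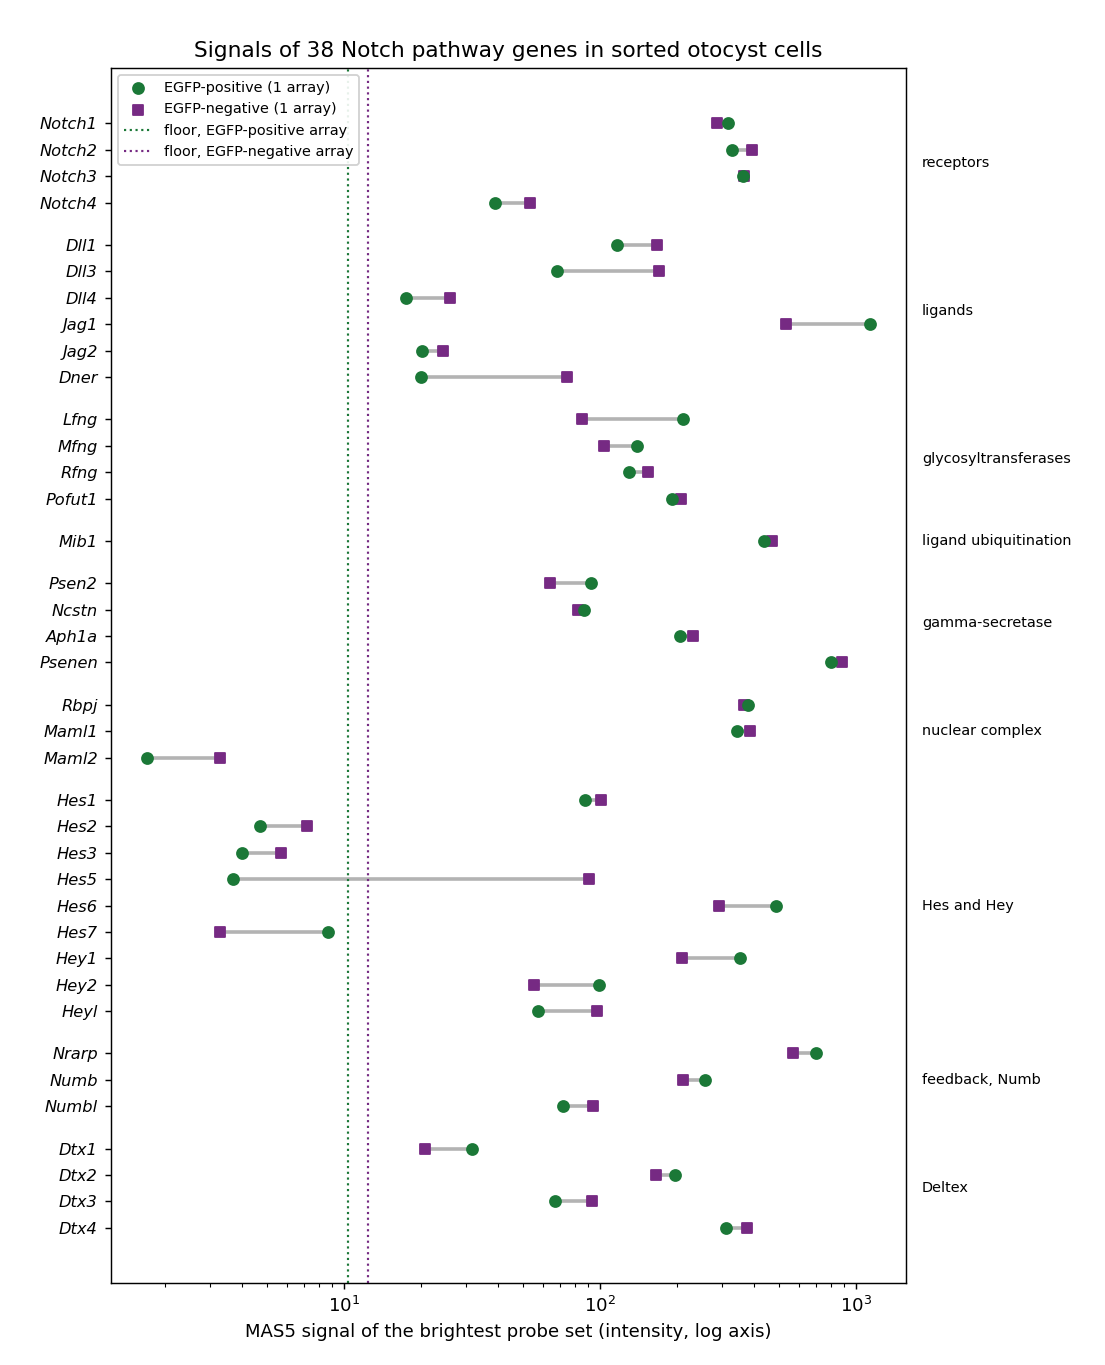
Signals of the brightest probe set of each of 38 Notch pathway genes (horizontal log axis, MAS5 intensity) in the EGFP-positive (green circles) and EGFP-negative (purple squares) array, ordered by role, with dotted lines at the floors of 10.4 and 12.4. Most pairs lie close together, Jag1 and Lfng are higher in EGFP-positive cells, Dll3, Dner and Hes5 are higher in EGFP-negative cells, and values left of the floors carry no order.

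Several members carry a match to the core sequence of the pathway's own DNA-binding protein near their start site. The windows of 3 of them are shown because these genes differed in direction. The RBPJ core was searched as GTGGGAA on both strands in RefSeq promoter windows of 300 bases (GRCm38.p6), which run from 250 bases before a start to 50 after it. There were 38 windows of 30 members. Mfng, Mib1, Hes1, Hes2, Hes3, Hey1, Heyl, Dtx3 and Dtx4 had no window and were not searched. The core was present in 6 of these 38 windows, 15.8%, those of Lfng, Psen2, Aph1a, Hes5, Hes7 and Hey2, and in 6.38% of all 32851 windows. Hes5 and Hey2 held 2 matches each, as did 0.256% of all windows. Below, each is printed 5' to 3' on the gene's strand to 10 bases after the start, 260 bases in all, with matches in capitals, so that TTCCCAC is the match on the opposite strand.
Hes5: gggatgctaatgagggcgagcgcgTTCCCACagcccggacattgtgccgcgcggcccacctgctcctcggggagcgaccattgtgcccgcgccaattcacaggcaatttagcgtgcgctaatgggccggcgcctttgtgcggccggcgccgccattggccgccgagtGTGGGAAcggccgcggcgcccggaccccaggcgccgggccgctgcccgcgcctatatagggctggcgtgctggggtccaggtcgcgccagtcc
Hey2: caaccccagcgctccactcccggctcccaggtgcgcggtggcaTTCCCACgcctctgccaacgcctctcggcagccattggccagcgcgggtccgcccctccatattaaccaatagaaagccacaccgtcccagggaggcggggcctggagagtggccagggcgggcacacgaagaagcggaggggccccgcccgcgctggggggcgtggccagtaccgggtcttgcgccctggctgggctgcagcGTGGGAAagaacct
Lfng: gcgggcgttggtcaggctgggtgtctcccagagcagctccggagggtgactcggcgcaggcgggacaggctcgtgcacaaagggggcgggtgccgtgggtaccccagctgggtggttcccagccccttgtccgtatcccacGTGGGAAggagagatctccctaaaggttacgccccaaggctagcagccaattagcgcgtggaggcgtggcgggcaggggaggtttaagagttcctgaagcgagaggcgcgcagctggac

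The Hes5 window is chr4:154960673-154960932 on the plus strand, with matches that begin 226 and 83 bases before the start. The Hey2 window is chr10:30842774-30843033 on the minus strand, with matches that begin 207 and 4 bases before the start. The Lfng window is chr5:140607091-140607350 on the plus strand, with 1 match that begins 109 bases before the start. As described further on, Hes5 was the member most strongly tilted to EGFP-negative cells. On the scale as deposited, Lfng, and Hey2 short of 2-fold, were higher in EGFP-positive cells. The windows were picked for this difference, so their directions say nothing about other genes with a match. The shorter core TGGGAA, which GTGGGAA contains, was found in 12 of the 38 windows, 31.6%, and in 25.6% of all windows. The N-box CACNAG, bound by Hes proteins, was found in 17, 44.7%, and in 42.5% of all windows, and the E-box CACGTG, the same on both strands, in 3, 7.89%, and in 7.15%. A match is a stretch of letters and no evidence of binding.

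The receptors were measured at similar levels in both libraries. Notch1, the receptor most studied in hair cell and neuroblast selection, had a signal of 317.6 in EGFP-positive cells and 286.3 in EGFP-negative cells, and 79.4 and 80.5 at its second probe set. Notch2 had 326.8 and 393.7, with 14.4 and 12.8 at a probe set just above the floor. Notch3, a receptor prominent in vascular mural cells, had 363.1 and 363.8, but 59.2 and 40.4 at its second probe set, a log2 ratio of 0.55. None of these 6 probe sets reached 2-fold, and the sign of the ratio differed between the probe sets of each of the 3 genes.

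Notch4, the receptor known from endothelium, had a signal of 39 in EGFP-positive cells and 53.4 in EGFP-negative cells, a log2 ratio of -0.45. Its other probe sets lay at the floor in both libraries. Endothelial markers leaned the same way, 15 of 16 by 2-fold or more with a median log2 ratio of -2.22, and 11 of the 16 lay at the EGFP-positive floor. The part of such cells in the Notch4 value was not tested.

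Of the 6 ligands, 1 passed 2-fold towards EGFP-positive cells and 2 towards EGFP-negative cells, where 2.90% and 7.63% of all genes did. Jag1, the ligand of the prosensory domain, had a signal of 1133.2 in EGFP-positive cells and 533.0 in EGFP-negative cells, 2.13-fold higher. Its other probe sets had 194.4 and 74.9, and 81.2 and 39.6, which are 2.60-fold and 2.05-fold higher. All 3 probe sets of Jag1 thus passed 2-fold the same way. Of 14 measured markers of the ventral and prosensory otocyst, 11 passed 2-fold the same way, 78.6% against 2.90% of all genes, with a median log2 ratio of 1.74. This list was chosen with earlier results of these data known. The part of such cells in the Jag1 value was not tested. Relative to the otic epithelium list, whose median was 1.30, the log2 ratio of Jag1 was -0.21, and after centring on 12 probe sets of hybridisation controls it was 0.84. Both values are from its brightest probe set. The probe set with a log2 ratio of 1.38 before centring stayed past 2-fold on the hybridisation controls.

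The Delta ligands lay the other way. Dll3, which acts inside the cell to dampen Notch signalling and is best known from the segmenting mesoderm and from nascent neurons, had a signal of 67.9 in EGFP-positive cells and 170.0 in EGFP-negative cells, 2.50-fold higher in the latter at its only probe set. Dll1, the ligand that neuroblasts present to their neighbours, had 116.6 and 166.9, a log2 ratio of -0.52 and within 2-fold. Dll4, a ligand of arterial endothelium, had 17.5 and 26.0, a log2 ratio of -0.57, close to the floor, and its second probe set lay at the floor in both libraries.

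Dner, a transmembrane protein of neurons with Delta-like repeats, had the largest ratio among ligands. Its signals were 20.1 in EGFP-positive cells and 74.6 in EGFP-negative cells, 3.71-fold higher in the latter, and 15.3 and 79.3, 5.18-fold, at its second probe set. Its low side was near the floor, and with the floor raised to the 60th percentile of each array the log2 ratio was -1.16 in place of -1.89. Jag2, the second Jagged ligand, had 20.2 and 24.3, and 14.8 and 22.8 at its other probe set, log2 ratios of -0.27 and -0.62.

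Most hindbrain markers were higher in the same library as Dll3 and Dner, whereas genes of otic neuroblasts went both ways. Of 14 hindbrain markers above the floor, 13 passed 2-fold towards EGFP-negative cells, with a median log2 ratio of -2.74, and 13 of the 16 measured lay at the EGFP-positive floor. Of 19 genes of delaminating otic neuroblasts, 3 passed 2-fold towards EGFP-positive cells, namely Neurog1, Pou4f1 and Shox2. Another 5 passed 2-fold towards EGFP-negative cells, namely Neurod4, Myt1, Ebf1, Ebf2 and Ebf3, and the median of the 19 was -0.52. The part of neural tube cells in the values of Dll3 and Dner was not tested.

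**Figure D2:**
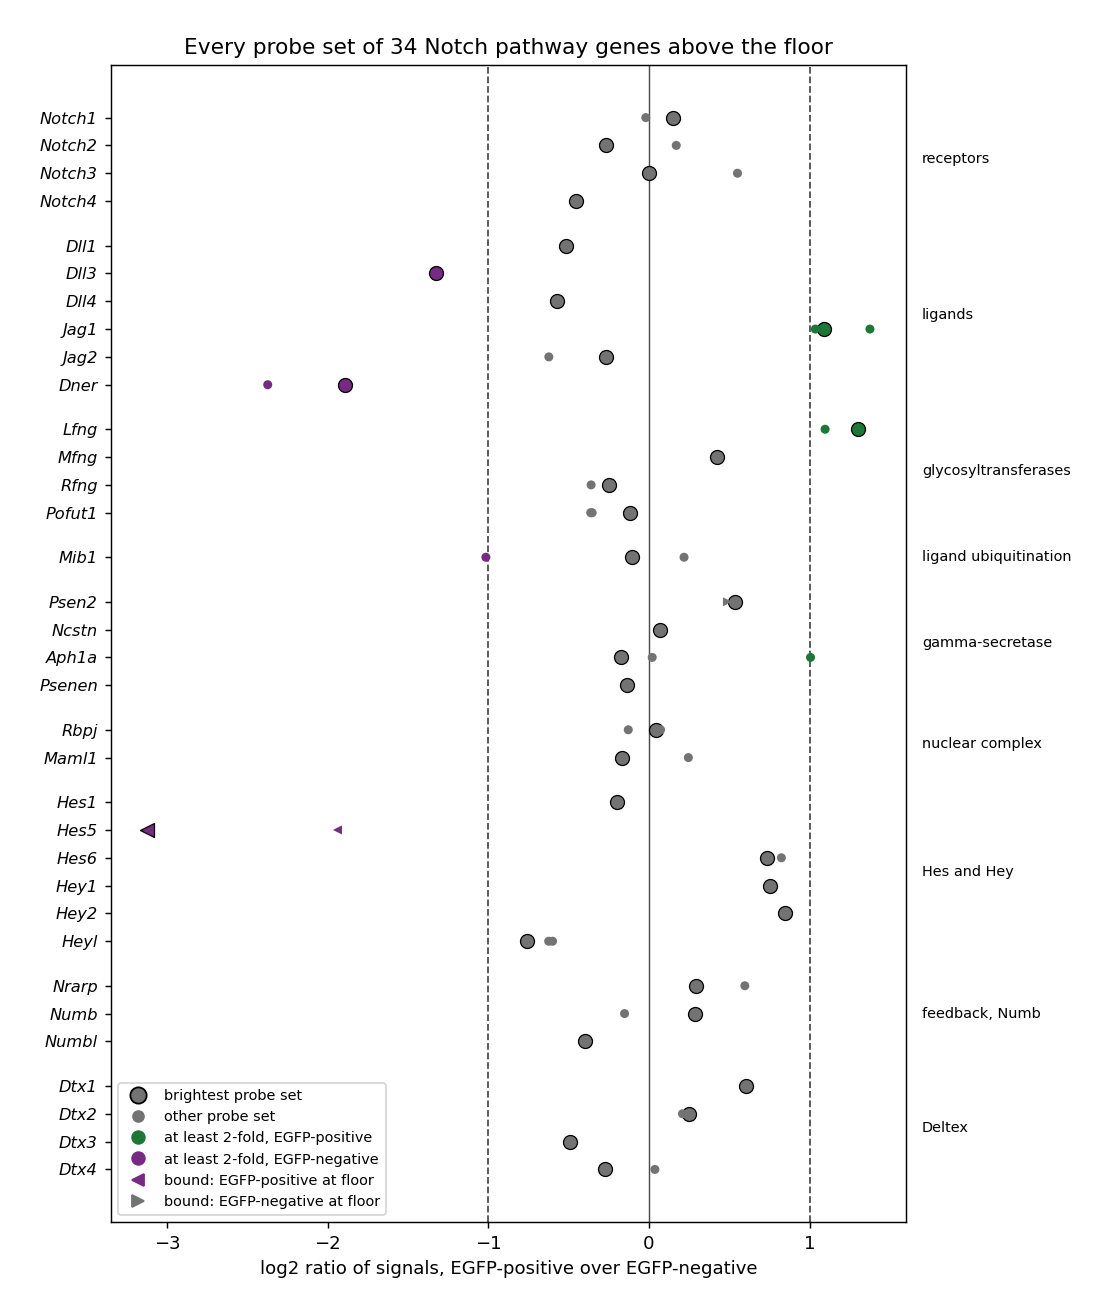
Log2 ratio of EGFP-positive over EGFP-negative signal (horizontal axis) for every probe set above the floor of 34 Notch pathway genes, with the brightest probe set of a gene outlined, bounds as triangles and dashed lines at 2-fold. All probe sets of Jag1 and Lfng lie past 2-fold to the right and all of Dner and Hes5 past 2-fold to the left, whereas Aph1a and Mib1 have 1 probe set past 2-fold and others near 0.

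Enzymes that modify receptors and ligands differed little apart from Lfng. Lfng, the fringe glycosyltransferase that extends sugars on Notch repeats and shifts which ligand is favoured, had a signal of 210.6 in EGFP-positive cells and 85.3 in EGFP-negative cells, 2.47-fold higher. Its second probe set had 29.3 and 13.7, 2.14-fold higher with the low side next to the floor. Both probe sets passed 2-fold on the scale as deposited. After centring on the hybridisation controls, which subtracts 0.2477, the brightest stayed past 2-fold, with a log2 ratio of 1.06. The second, at 1.10 before that centring, fell short of 2-fold. Relative to the otic epithelium list, the log2 ratio of Lfng at its brightest probe set was 0.0022.

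The other fringes did not follow Lfng past 2-fold. Mfng had 139 in EGFP-positive cells and 103.8 in EGFP-negative cells, a log2 ratio of 0.42. Rfng had 130.4 and 154.7, and 54.3 and 69.7 at its second probe set, log2 ratios of -0.25 and -0.36. Pofut1, the fucosyltransferase whose sugar the fringes extend, had 191.2 and 207.9, and its weaker probe sets had log2 ratios of -0.36 and -0.35.

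Mib1, the ubiquitin ligase that lets ligands be taken up and become active, had 437.9 in EGFP-positive cells and 471.6 in EGFP-negative cells at its brightest probe set. Its other probe sets disagreed, with 36.3 and 31.2 at one and 18.5 and 37.4 at the other, log2 ratios of 0.22 and -1.02. The gene was therefore counted as within 2-fold, with 1 of 3 probe sets past it.

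Gamma-secretase genes were within 2-fold at their brightest probe sets. Psenen, the small subunit needed for assembly, had 800.5 in EGFP-positive cells and 880.2 in EGFP-negative cells. Ncstn, the substrate-receiving subunit nicastrin, had 86.3 and 82.2. Psen2, a catalytic subunit, had 92.3 and 63.7, a log2 ratio of 0.54, and its second probe set had 17.4 and 9.9, the latter at the floor.

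Aph1a, the scaffold subunit, gave probe sets that did not concur. The brightest had 205.1 in EGFP-positive cells and 231.7 in EGFP-negative cells, the next had 120.9 and 60.2, and the last had 43.2 and 42.6, log2 ratios of -0.18, 1.01 and 0.02. Only the second passed 2-fold, by a margin smaller than the SD of 0.315 between probe sets of the same gene over 5640 genes. Whether these probe sets see different transcripts of Aph1a was not tested.

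The nuclear complex was level. Rbpj, the DNA-binding partner of the receptor's intracellular domain, had 377.6 in EGFP-positive cells and 366.6 in EGFP-negative cells, 370.4 and 352.3, and 83.5 and 91.3 at its 3 probe sets, log2 ratios from -0.13 to 0.07. Maml1, a Mastermind coactivator, had 344.5 and 386.9, and 72.9 and 61.5 at a second probe set. Maml2 had 1.7 and 3.3, at the floor in both.

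Targets diverged within the Hes and Hey families. Hes5, the target gene best known from neural progenitors, had a signal of 3.7 in EGFP-positive cells and 90.9 in EGFP-negative cells, at least 8.74-fold higher in the latter, because the EGFP-positive signal lay at the floor. Its second probe set had 4.5 and 39.9, at least 3.84-fold. Among 27 control probe sets for bacterial RNA, the highest reached 12.3 in the EGFP-positive library, above both Hes5 signals there. The size of the Hes5 ratio depended on the floor, with a log2 ratio of at most -1.45 when the floor stood at the 60th percentile and -4.62 at the 20th. Hindbrain markers, whose summed signal was 101.4 in EGFP-positive cells and 3075.5 in EGFP-negative cells, were higher in the same library, and their part in the Hes5 value was not tested.

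Hes1, the target shared by most tissues, showed no such difference. It had 87.8 in EGFP-positive cells and 100.6 in EGFP-negative cells, a log2 ratio of -0.20. Hes6, which opposes Hes1 and promotes neuronal differentiation, had 485.9 and 292.1, 1.66-fold higher in EGFP-positive cells, and 262.3 and 148.1, 1.77-fold, at its second probe set. Both Hes6 probe sets lay on the same side and short of 2-fold. Hes2, Hes3 and Hes7 lay at the floor in both libraries, with signals between 3.3 and 8.7, so their order cannot be read.

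The Hey genes split too, with none past 2-fold. Hey1 had 351.5 in EGFP-positive cells and 208.6 in EGFP-negative cells, 1.69-fold higher. Hey2, which holds back differentiation in the organ of Corti, had 99.1 and 55.2, 1.80-fold higher. Heyl, the third member and known from mural cells, went the other way, with 57.5 and 97.3, 36.0 and 55.5, and 15.5 and 23.5 at its probe sets. All 3 Heyl probe sets were higher in EGFP-negative cells, with log2 ratios from -0.76 to -0.60, and the gene passed 2-fold, at -1.01, when arrays were centred on hybridisation controls.

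Markers of pericytes and smooth muscle, which include the platelet-derived growth factor receptor gene Pdgfrb, were examined beside Heyl and Notch3. Of 7 above the floor, 3 passed 2-fold towards EGFP-negative cells and 1, Rgs5, towards EGFP-positive cells, with 49.2 and 19.4 at its brightest probe set. Summed signals over 10 markers were 192.8 in EGFP-positive cells and 849.6 in EGFP-negative cells. Pdgfrb, with 56.1 and 615.8, holds most of the EGFP-negative sum. The part of pericytes and smooth muscle in the Heyl value was not tested. Relative to the otic epithelium list, the log2 ratios of Hes6, Hey1 and Hey2 turned to -0.57, -0.55 and -0.46.

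Inhibitors and feedback genes were within 2-fold. Nrarp, a target whose product limits Notch signalling, had 696.7 in EGFP-positive cells and 569.3 in EGFP-negative cells, and 253.8 and 167.8, 1.51-fold, at its second probe set. Numb, which removes Notch from the surface, had 256.1 and 210.2, and its second probe set had 23.4 and 26.0. Its relative Numbl had 71.6 and 94.2, a log2 ratio of -0.40.

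The Deltex genes, for ubiquitin ligases that bind the Notch intracellular part, also stayed within 2-fold. Dtx2 had 196.9 in EGFP-positive cells and 165.6 in EGFP-negative cells, and 95.1 and 82.3 at its second probe set. Dtx4 had 309.5 and 374.0, and 126.4 and 123.2 at its second. Dtx1 had 31.6 and 20.8, a log2 ratio of 0.60, and Dtx3 had 66.5 and 93.5, a log2 ratio of -0.49.

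Counted by probe set, 6 of the 61 above the floor passed 2-fold towards EGFP-positive cells, 9.84% against a background of 2.54% of all probe sets above the floor. They were the 3 of Jag1, the 2 of Lfng and 1 of Aph1a. Another 6 passed 2-fold towards EGFP-negative cells, 9.84% against a background of 6.63%, namely the 2 of Hes5, the 2 of Dner, the 1 of Dll3 and 1 of Mib1. Probe sets of a gene are not independent, so these shares weight genes by their probe sets. Of 19 members with several probe sets above the floor on both arrays, 9 had ratios of both signs. Of the 5 genes past 2-fold, Dll3, with 1 probe set, and Hes5, at the EGFP-positive floor, could not be among the 19. Jag1, Lfng and Dner were not among the 9, but selection at 2-fold made that likely.

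**Figure D3:**
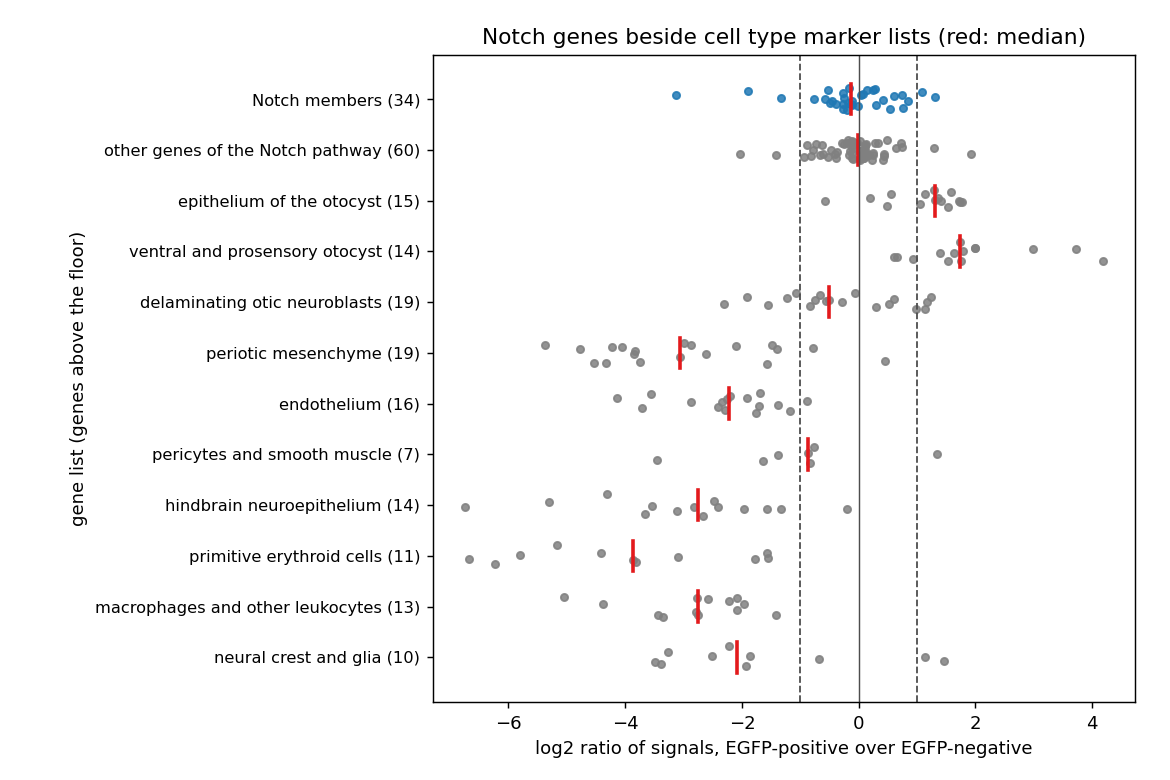
Log2 ratio of EGFP-positive over EGFP-negative signal for the 34 Notch members (blue) and for genes of other lists (grey), bounds included, with the number of genes above the floor in brackets, the median in red and dashed lines at 2-fold. The Notch median is -0.13, the median of otic epithelium is 1.30 and those of hindbrain, endothelium and mesenchyme are -2.74, -2.22 and -3.05.

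Further genes of the pathway were close between the libraries. A list of 74 genes for proteases, ligand handling, glycosylation, receptor turnover, nuclear cofactors, extracellular modulators and other reported targets had 60 above the floor, with a median log2 ratio of -0.0043. Of these, 2 passed 2-fold towards EGFP-positive cells and 2 towards EGFP-negative cells, 3.33% in each direction against backgrounds of 2.90% and 7.63%. The other 56 lay within 2-fold.

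The genes past 2-fold were a mixed group. Cdkn1a, a cell cycle inhibitor also induced by p53, had 419.9 in EGFP-positive cells and 110.6 in EGFP-negative cells, 3.80-fold higher. Dlk2, a Delta-like protein, had 30.2 and 6.5, at least 2.44-fold higher with the low side at the floor. Myc, a growth regulator that Notch activates in some cells, had 35.0 and 142.3, 4.07-fold higher in EGFP-negative cells. Tspan33, a tetraspanin that escorts the protease Adam10, had 123.3 and 329.7, 2.67-fold higher in EGFP-negative cells, and its least different probe set had a log2 ratio of -0.45. Tetraspanin 33 is also known from erythroid cells, and all 11 measured erythroid markers passed 2-fold the same way. Their part in the Tspan33 value was not tested.

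The brightest gene of each of the 8 groups of this list was within 2-fold. The protease gene Adam10, which makes the first cut of the activated receptor, had 879.0 in EGFP-positive cells and 953.4 in EGFP-negative cells. The glucosyltransferase gene Poglut2 had 772.2 and 837.5, and the ubiquitin ligase gene Nedd4 3155.4 and 2911.5. The coactivator gene Snw1 had 706.4 and 646.9, the corepressor gene Hdac2 1533.0 and 1413.0, and the microfibril gene Mfap2 425.5 and 455.3, though the other probe set of Mfap2 had a log2 ratio of -1.73. Eps15, an endocytic adaptor gene, and Ccnd1, the cyclin D1 gene, were further apart, with 254.5 and 449.9, and 2649.0 and 1587.5, and the most different of the 3 probe sets of Ccnd1 had a log2 ratio of 1.09.

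The scaling of the arrays set how the directions read. On the scale as deposited, 14 of the 34 members had a ratio above 0 and 20 below. Centring on the hybridisation controls moved the median of all genes to -0.24 and left 11 members above 0, and centring on the otic epithelium list moved it to -1.30, left 1 above 0, Lfng, and put 26 past 2-fold towards EGFP-negative cells, 76.5% of members against 81.1% of all genes. Of all genes past 2-fold, 72.4% leaned to EGFP-negative cells on the scale as deposited, 86.5% after the first centring and 99.8% after the second. Both centrings subtract a constant from every ratio, so a gene past 2-fold towards EGFP-negative cells could not leave that side.

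**Figure D4:**
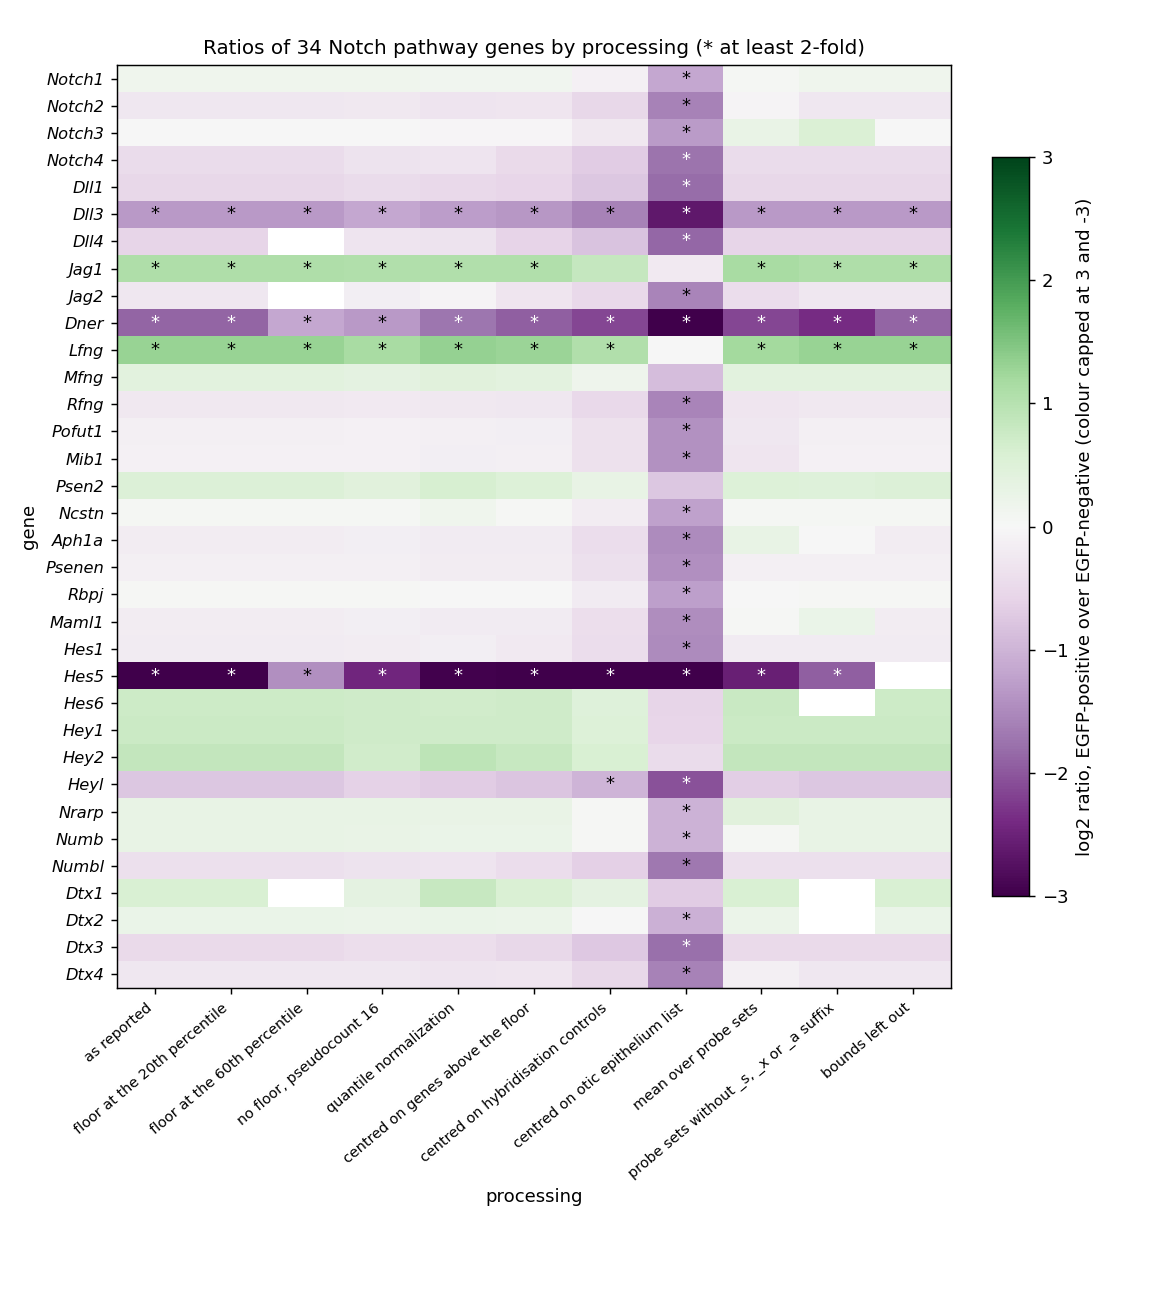
Log2 ratio of 34 Notch pathway genes (rows) under the processing reported and 10 alternatives (columns), green for higher in EGFP-positive and purple for higher in EGFP-negative cells, with an asterisk at 2-fold or more. White marks a gene that was not measured. Ratios close to 0, such as that of Lfng under centring on otic epithelium, are near white too. Dll3 and Dner carry an asterisk in every column, Hes5 in every column in which it has a value, and Jag1 in all but the centring on hybridisation controls and on otic epithelium.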

How the data were processed

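The deposited values are intensities, 1 signal per probe set on a linear scale for 45101 probe sets on 2 arrays. Per the submitters' processing notes, the authors computed them with MAS5, version 5.0. The mean after trimming 2% at each end was 100.0 on both arrays, so they had been scaled to a common level, which can hide a shift shared by many genes. The scaling target and detection calls were not used here. Of the probe sets, 34958 named 1 gene in the platform annotation (current symbols by gene identifier, GRCm38.p6 RefSeq table), 932 named several and 9211 were unnamed here.

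Each signal was raised to its array's 40th percentile, the brightest probe set stood for a gene, and the log2 ratio of EGFP-positive over EGFP-negative was taken. Genes at the floor on both arrays were left out. A gene was counted at 2-fold. Where a gene had several probe sets above the floor (5640 genes), their ratios had a pooled SD of 0.315, which does not include variation between embryos or sorts. Other settings were floors at the 20th and 60th percentiles, a pseudocount of 16, quantile normalization, 3 centrings, 2 other choices of probe set and leaving out bounds. The number of arrays limits the precision. The calculation was tested on simulated data. Members, lists and the rule for named genes (members past 2-fold or with a signal of 100 or more with all probe sets, pathway genes past 2-fold and the brightest of each subgroup) were chosen with earlier results of these data known. Python 3.11.15, pandas 2.3.3 and numpy 2.4.6 were used.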

Additional observations from a re-analysis of the deposited data

How the results depend on the processing

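The members at least 2-fold apart were the same 5 genes, Jag1, Lfng, Dll3, Dner and Hes5, in 7 of the 10 alternatives. The exceptions were the centrings on hybridisation controls and on otic epithelium, and leaving out bounds, which dropped Hes5 because it lay at the floor. Centred on hybridisation controls, 1 member passed 2-fold towards EGFP-positive cells, 2.94% against 1.68% of all genes, and 6 further pathway genes towards EGFP-negative cells, 10.0% of 60 against 10.8% of all genes. Centred on the otic epithelium list, 0 members and 0 further pathway genes passed 2-fold towards EGFP-positive cells, where 0.165% of all genes did, and 26 members and 50 further pathway genes towards EGFP-negative cells, 76.5% and 83.3% against 81.1% of all genes, the median of members was -1.43 and Jag1 turned to -0.21. Of the further pathway genes, 4 passed 2-fold towards EGFP-negative cells when the 20th percentile was the floor, 6.15% against 11.8% of all genes. With probe sets ending in _s, _x or _a left out, 0 of the 42 measured did, against 7.52% of all genes. Myc, which has 1 probe set, was not among the 42. Dlk2 fell out with the floor at the 60th percentile, with the mean over probe sets, with those suffixes left out and with bounds left out, leaving 1 further gene higher in EGFP-positive cells in each. Of 333 values of single members over all alternatives, 288 moved by less than the SD between probe sets, and 45 moved by more, 34 of them under the otic epithelium centring. The sign changed in 23, of which 13 came under that centring, 3 under the centring on hybridisation controls, 4 with the mean over probe sets and 3 with suffixes left out, and of these 23 only Jag1 under the otic epithelium centring was past 2-fold as reported. Part of the count of 288 and 45 was fixed in advance. Each centring subtracts a constant, 0.0309, 0.2477 or 1.3017, so all members fall on the same side of the SD of 0.315. Leaving out bounds cannot move a value, and another floor changes only members with a signal below the higher of the 2 floors. These counts therefore do not measure how stable the ratios are. No paired analysis was possible because each group has 1 array and the labels give no replicate numbers. Moving the floor changed the ratios of Hes5 and Dner by more than the SD between probe sets, and Dll4, Jag2 and Dtx1 had no value with the floor at the 60th percentile.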
